A study of Mus musculus with 9 samples.

Results

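Astrocytes and oligodendrocyte precursors were represented by 10 genes, chosen by name as markers of these macroglial lineages, with earlier results of these data known. Olig1, Olig2, Sox10, Pdgfra and Cspg4 mark the oligodendrocyte lineage, and Aldh1l1, Aqp4, Gfap, Gja1 and S100b mark astrocytes. All 24 transcript rows of these genes were summed per gene, and the 10 genes were read among 18555 protein-coding genes with a count. All 10 passed the filter on low values that left 15263 genes tested.

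Oligodendrocyte precursors divide under PDGF, whose receptor they carry, and later become the myelinating cells of the brain, while astrocytes arise from radial glia around birth and take up transmitter, potassium and water. Olig1, Olig2 and Sox10 are nuclear transcription factors, Pdgfra and Cspg4 encode cell surface proteins, and the astrocyte genes encode an enzyme, a water channel, a filament protein, a gap junction protein and a calcium-binding protein. CELF2 is an RNA-binding protein that acts on splicing in the nucleus and on mRNA stability and translation in the cytoplasm. Several of these markers are shared with other cells of the newborn cortex, among them radial glia, pericytes and meningeal fibroblasts.

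The study asked which mRNAs come down with CELF2 in the cytoplasm, using RNA immunoprecipitation and sequencing (RIP-seq). Cortices were taken at postnatal day 0 from mice heterozygous for the Celf2 p.R493H knockin (KI) allele, made by CRISPR/Cas9 and backcrossed. The cytoplasmic fraction was incubated with 10 µg of rabbit antibody to CELF2 (CELF2-KI RIP) or of normal rabbit IgG (IgG RIP) for 3 hours, and an aliquot set aside beforehand was the input. There were 3 libraries of each, described by the submitters as biological replicates, and the number of animals behind each is not given. All 9 libraries carry the KI allele and none is wild type, so no value here measures what the allele does. The lysate mixes neurons, radial glia, astrocytes, oligodendrocyte precursors, microglia and endothelial cells. In such a mixture the level of a gene in a library does not separate cell number from RNA per cell. Input RNA came from the same cytoplasm that was then exposed to antibody or IgG. Comparisons between groups therefore read how much RNA was recovered and count no cells. Which libraries shared a preparation is not given.

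Total estimated counts ran from 15919600 to 105116427 per library, with the 3 input libraries the deepest. Ribosomal RNA took 34.95% and 32.96% of the counts in IgG RIP 1 and 2 and 10.98% in IgG RIP 3, against 1.44% to 2.28% in the other 6 libraries. Celf2 mRNA itself measured 638 ± 164 CPM in the CELF2-KI RIPs, 233 ± 33.4 CPM in the IgG RIPs and 296 ± 14.9 CPM in the inputs (mean ± SD, n = 3 each), which checks no label because the antibody binds the protein. Values are CPM, counts scaled to a common library size after correction by the trimmed mean of M values (TMM), and they compare a gene between libraries, not genes with each other. A gene passed the test where edgeR's false discovery rate (FDR, adjusted over all 15263 genes) was under 0.01, and a 2-fold minimum was applied as a further rule.

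The macroglial genes differed in direction between CELF2-KI RIP and the controls. Pdgfra, Aqp4 and Gja1 were higher than in IgG RIP, 3 of 10 genes where 22.9% of all tested genes passed in that direction. Sox10, Cspg4 and Gfap were lower, again 3 of 10 against a background of 19.2%. Both counts lie near the background share. With the 2-fold minimum added, Aqp4 was the 1 gene called higher, beside 13.4% of all genes, and none was called lower, beside 13.5%. The median log2 fold change over the 10 genes was -0.33, and over all tested genes it was -0.06.

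**Figure D1:**
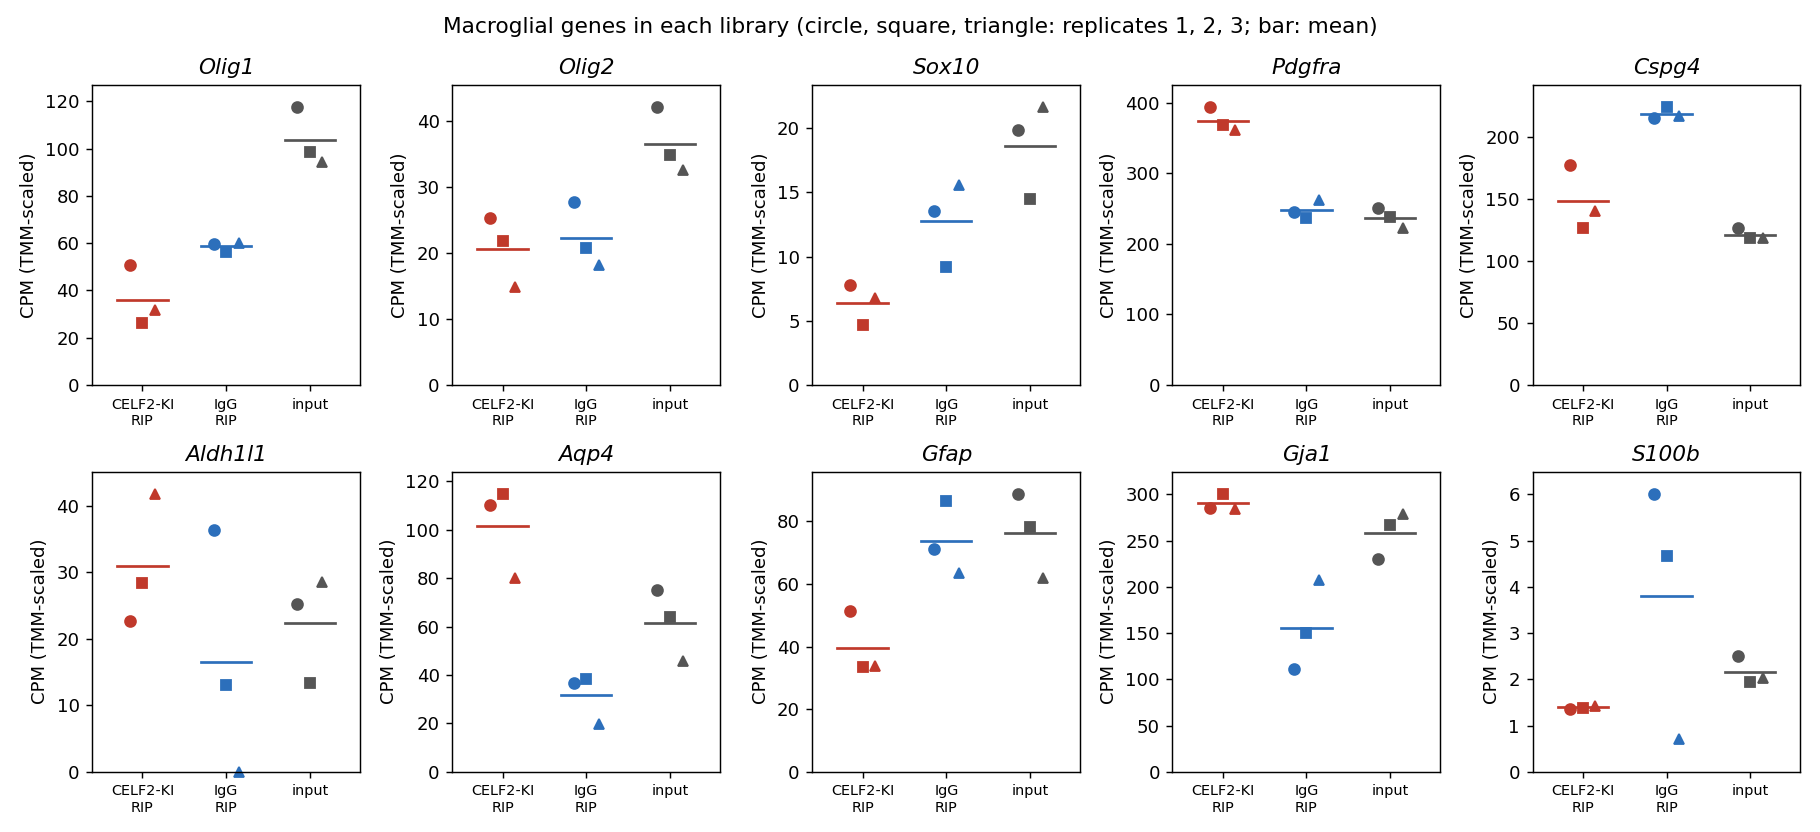
Level of each macroglial gene in each library, in CPM on TMM-scaled library size, with the vertical axis starting at 0 and scaled separately for each gene. Points are libraries and bars are means of 3; the CELF2-KI RIP points of Pdgfra, Aqp4 and Gja1 lie above all 6 control points and those of Olig1, Sox10 and Gfap below all 6.

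Against input, 1 gene was higher (Pdgfra, where 26.8% of all genes passed) and 4 were lower (Olig1, Olig2, Sox10 and Gfap, where 20.1% passed). With the 2-fold minimum, 0 were higher than input, beside 14.6% of all genes. Olig1 and Sox10 also met the 2-fold minimum for a fall below input, beside 15.5% of all genes. The median of the 10 was -0.23 on the log2 scale, beside 0.19 for all tested genes. Pdgfra was the 1 gene higher than both controls, beside 17.4% of all genes, a call that depended on the scaling of the libraries. Sox10 and Gfap were the 2 lower than both, beside 13.4%. With the 2-fold minimum in both comparisons, 0 of 10 were higher and 0 of 10 lower, beside 7.58% and 9.52% of all genes. At an unadjusted p under 0.05 in edgeR, 3 of the 10 exceeded IgG RIP (30.6% of all genes) and 5 were below it (29.8%), while 3 exceeded input (37.2%) and 4 were below it (27.3%). DESeq2's Wald test at the same FDR called 3 above (24.3% of all genes) and 4 below IgG RIP (24.6%), and 1 above (26.4%) and 4 below input (25.5%). Both comparisons use the same CELF2-KI RIP libraries.

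Separation of the libraries gave similar counts. All 3 CELF2-KI RIP libraries were above all 6 controls for Pdgfra, Aqp4 and Gja1, beside 25.2% of all genes, and below all 6 for Olig1, Sox10 and Gfap, beside 19.9%. Against IgG RIP alone, 3 members were above without overlap (30.0% of all genes) and 4 below (27.4%), the fourth being Cspg4. Against input alone, 4 were above (42.1%), Cspg4 among them, and 5 below (31.8%), with Olig2 and S100b added. IgG RIP was above input without overlap for Cspg4 (27.1% of all genes) and below it for Olig1, Olig2, Aqp4 and Gja1 (29.4%).

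The control comparison was read for the same genes. Cspg4, higher in IgG RIP than in input, was the 1 member of 10 to pass in either direction, where 23.3% of all genes passed. With the 2-fold minimum 0 of 10 were called, beside 11.8% of all genes. At an unadjusted p under 0.05, 4 members (Olig1, Olig2, Aqp4 and Gja1) were lower in IgG RIP than in input, beside 24.2% of all genes, and DESeq2 called those 4 at its own FDR, beside 19.1%. The member median was -0.49, beside -0.003 for all tested genes.

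**Figure D2:**
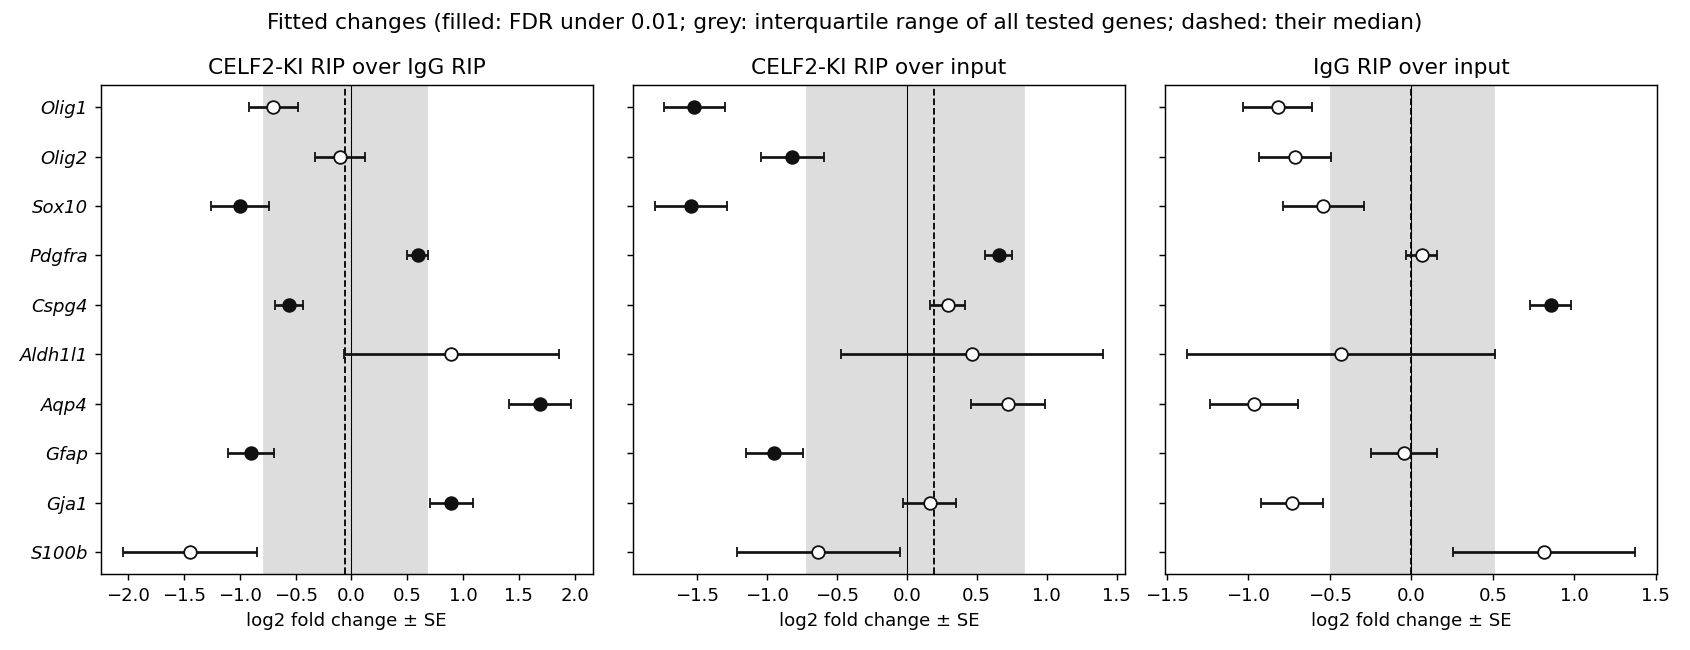
Fitted log2 fold change with its standard error for each macroglial gene in the 3 comparisons, with filled points for an FDR under 0.01 in edgeR, a grey band for the interquartile range of all tested genes and a dashed line for their median. Aqp4 stands at 1.69 over IgG RIP, and Olig1 and Sox10 at -1.52 and -1.54 over input, all outside the grey band.

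The transcription factors were low in CELF2-KI RIP relative to input. Olig1, a basic helix-loop-helix factor of the oligodendrocyte lineage at chr16:91269769-91271939 (GRCm38, as are all positions here), measured 50.9, 26.0 and 31.6 CPM in CELF2-KI RIP 1 to 3. It measured 59.6, 56.2 and 60.2 CPM in IgG RIP and 118, 98.7 and 94.5 CPM in input. The 3 groups did not overlap, with input highest, IgG RIP between and CELF2-KI RIP lowest. Olig1 fell 2.86-fold below input (log2 fold change -1.52 ± 0.22 SE, edgeR FDR 0.000188). Against IgG RIP its value was -0.70 ± 0.22, which did not pass (FDR 0.0190), and without CELF2-KI RIP 1, the highest of its group, it was -1.03 and passed (FDR 0.000361). IgG RIP against input gave -0.82 ± 0.21 (FDR 0.0124), and without CELF2-KI RIP 1 or 2, which share the model's estimate of spread, that value passed (FDR 0.00118 and 0.00580).

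Olig2, the factor that commits progenitors to the oligodendrocyte lineage and to motor neurons in the spinal cord, lies near Olig1 at chr16:91225550-91228677. Its levels were 25.4, 21.9 and 14.8 CPM in the CELF2-KI RIPs, 27.7, 20.8 and 18.1 CPM in the IgG RIPs and 42.1, 34.8 and 32.6 CPM in the inputs. The RIP groups overlapped, and all 6 of their libraries lay below the 3 input libraries. The change against IgG RIP was -0.10 ± 0.23 (edgeR FDR 0.725) and took the other sign without CELF2-KI RIP 3 or IgG RIP 1 (0.09 in each case). Olig2 fell 1.76-fold below input (-0.82 ± 0.22, FDR 0.00931), a call that was lost without CELF2-KI RIP 2, CELF2-KI RIP 3, IgG RIP 2 or any of the 3 input libraries (values from -1.002 to -0.63, FDR from 0.01001 to 0.0334). It was also lost with edgeR's glmTreat against 1.2-fold (FDR 0.0197) and with curated mRNA rows only (FDR 0.0240).

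Olig1 and Olig2 are neighbours and are transcribed in the same cells, so their ratio was read inside each library, where scaling has no part. The Olig1 to Olig2 ratio of counts was 2.01, 1.19 and 2.13 in the CELF2-KI RIPs, 2.16, 2.70 and 3.32 in the IgG RIPs and 2.79, 2.84 and 2.90 in the inputs. All 3 CELF2-KI RIP ratios were below the 6 control ratios, the nearest pair being 2.13 and 2.16.

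Sox10, a factor that drives myelin genes and is also present in neural crest cells, lies at chr15:79154913-79164490. It measured 7.76, 4.70 and 6.79 CPM in the CELF2-KI RIPs, 13.5, 9.22 and 15.6 CPM in the IgG RIPs and 19.8, 14.5 and 21.6 CPM in the inputs. These values rest on 61 to 97 counts per CELF2-KI RIP library and 93 to 217 per IgG RIP library. Every CELF2-KI RIP library was below every control library, while IgG RIP and input overlapped. Sox10 fell 2.91-fold below input (-1.54 ± 0.26, edgeR FDR 0.000517) and 1.999-fold below IgG RIP (-0.999 ± 0.26, FDR 0.00815), the latter just short of the 2-fold minimum. The call against IgG RIP was lost without CELF2-KI RIP 2, CELF2-KI RIP 3, IgG RIP 1 or IgG RIP 3, with values of -0.82, -1.04, -0.96 and -0.84 and FDRs of 0.0322, 0.0223, 0.0239 and 0.0224. It was also lost with curated mRNA rows only (FDR 0.0107), with edgeR's glmTreat against 1.2-fold (FDR 0.0147) and with only the 2 groups compared (FDR 0.0204). The count of Sox10 was whole in 7 of 9 libraries.

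The surface proteins of the precursors differed from the factors and from each other. Pdgfra, the PDGF receptor alpha at chr5:75151322-75198206, measured 394, 368 and 361 CPM in the CELF2-KI RIPs, 245, 236 and 263 CPM in the IgG RIPs and 251, 238 and 222 CPM in the inputs. The CELF2-KI RIP libraries were all above the controls, and the controls overlapped. Pdgfra was 1.51-fold higher than in IgG RIP (0.59 ± 0.10, edgeR FDR 0.000465) and 1.58-fold higher than in input (0.66 ± 0.10, FDR 0.000208), both under the 2-fold minimum. Leaving out any single library kept both calls past the threshold, but other scalings did not. With total counts both were lost (0.23, FDR 0.0885 over IgG RIP and 0.20, FDR 0.138 over input), as they were with TMM over coding and noncoding genes (0.38, FDR 0.0183 and 0.27, FDR 0.0693). With upper quartile scaling the call over IgG RIP was lost (0.33, FDR 0.0137). Of its 5 transcript rows, 1 coding row held 77.4% to 96.1% of the counts in every library.

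Pdgfra is also made by meningeal fibroblasts, whose markers were read beside it. The 6 fibroblast and meningeal markers, among them the collagens Col1a1, Col1a2 and Col3a1, summed to 1183 to 2096 CPM in the CELF2-KI RIPs, 1340 to 1981 in the IgG RIPs and 711 to 1054 in the inputs. Of the 6, 0 passed the test in either direction against IgG RIP (edgeR, and 0 at an unadjusted p under 0.05), and none was at 0. Over all genes 22.9% passed as higher and 19.2% as lower. Against input, Col1a2 was higher (1.11, edgeR FDR 0.00297) and Dcn lower (-1.85, FDR 0.000575), while Col1a1 (0.76, FDR 0.0108) and Col3a1 (0.80, FDR 0.0264) did not pass. Their part in the Pdgfra result was not tested.

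Cspg4, which encodes the NG2 proteoglycan of precursors and pericytes at chr9:56865104-56899870, was the member that IgG RIP held most strongly relative to input. Its levels were 177, 127 and 140 CPM in the CELF2-KI RIPs, 215, 224 and 217 CPM in the IgG RIPs and 126, 118 and 118 CPM in the inputs. The 3 groups did not overlap, with IgG RIP highest and input lowest, although the lowest CELF2-KI RIP library and the highest input library were within 1 CPM. IgG RIP was 1.81-fold higher than input (0.85 ± 0.13, edgeR FDR 0.000764). CELF2-KI RIP was 1.48-fold lower than IgG RIP (-0.56 ± 0.13, FDR 0.00355), and its value over input was 0.29 ± 0.13, which did not pass (FDR 0.0660). The fall below IgG RIP was lost without CELF2-KI RIP 3 (-0.52, FDR 0.0176) or IgG RIP 2 (-0.53, FDR 0.0146). It was also lost with edgeR's glmTreat against 1.2-fold (FDR 0.0159) and with only the 2 groups compared (FDR 0.0155).

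The 6 pericyte markers summed to 312 to 346 CPM in the CELF2-KI RIPs, 257 to 396 in the IgG RIPs and 377 to 473 in the inputs. Abcc9 was higher than in IgG RIP (0.76) and Vtn (-1.83) and Kcnj8 (-1.18) were lower, none was at 0, and their part in the Cspg4 result was not tested. The ratio of Pdgfra to Cspg4 within a library was 2.22, 2.91 and 2.57 in the CELF2-KI RIPs, 1.14, 1.06 and 1.21 in the IgG RIPs and 1.99, 2.02 and 1.88 in the inputs. The CELF2-KI RIP ratios were above all 6 controls and the IgG RIP ratios below all 6 others. The Pdgfra to Olig2 ratio was 15.5, 16.8 and 24.3 in the CELF2-KI RIPs, 8.87, 11.3 and 14.5 in the IgG RIPs and 5.97, 6.85 and 6.82 in the inputs, and the 3 groups did not overlap.

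**Figure D3:**
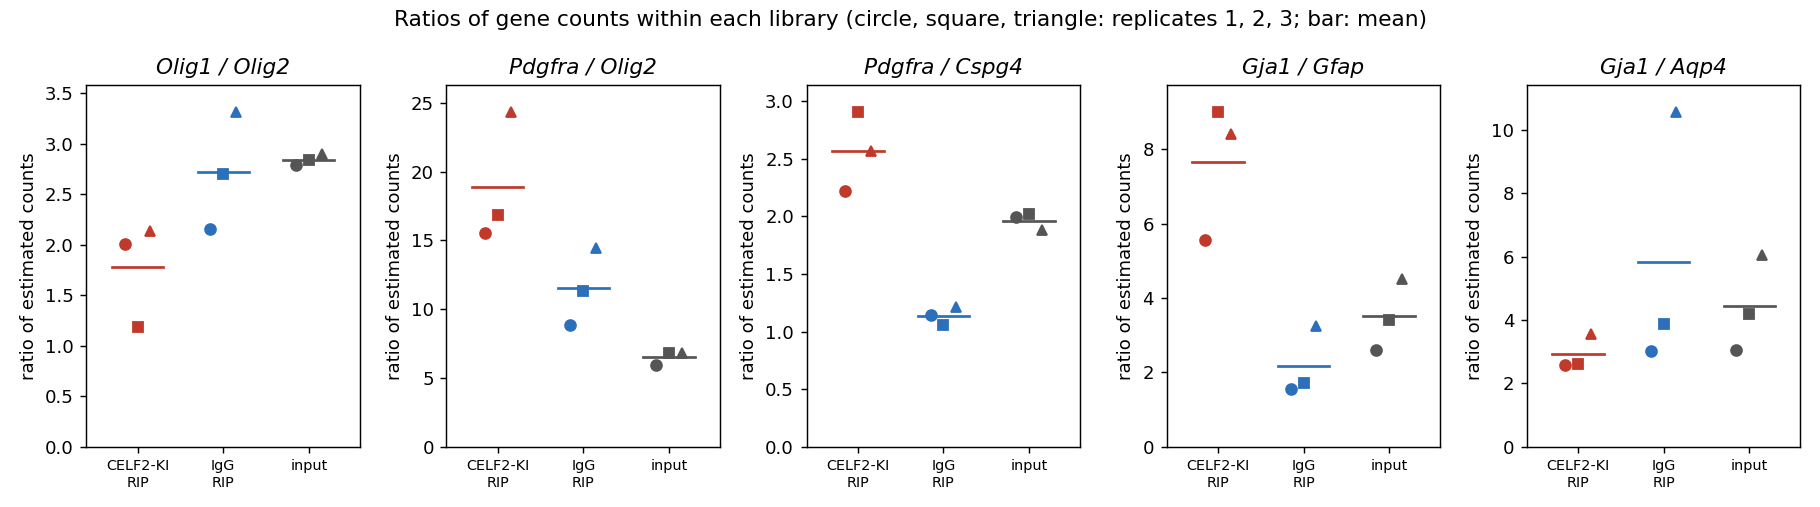
Ratio of the estimated counts of 2 macroglial genes within each library, on axes starting at 0, with points for libraries and bars for means of 3. The ratios of Pdgfra to Olig2, Pdgfra to Cspg4 and Gja1 to Gfap are higher in every CELF2-KI RIP library than in any control library, and the ratio of Olig1 to Olig2 is lower.

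Of the 5 astrocyte genes, Aqp4 and Gja1 were higher and Gfap was lower than in IgG RIP. Aqp4, the water channel of astrocyte endfeet at chr18:15389394-15410982, measured 110, 115 and 80.1 CPM in the CELF2-KI RIPs, 36.9, 38.5 and 19.6 CPM in the IgG RIPs and 75.1, 63.9 and 46.0 CPM in the inputs. No groups overlapped, with CELF2-KI RIP highest and IgG RIP lowest. Aqp4 was 3.22-fold higher than in IgG RIP (1.69 ± 0.27, edgeR FDR 0.000481) and passed in all 21 alternative settings tried (1.31 to 2.27). Over input its value was 0.72 ± 0.26, which did not pass (FDR 0.0360), but passed without IgG RIP 3 (0.72, FDR 0.00746). With a replicate block over all 9 libraries, which matched the IgG RIPs by number as well, it was 0.73 and passed (FDR 0.00223). IgG RIP was at -0.97 ± 0.27 against input, which did not pass (FDR 0.0171).

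Aqp4 was spread over 9 transcript rows, of which 1 held 65.4% to 100% of its counts in every library and another 0% to 23.7%. Its span overlaps the noncoding gene A830021F12Rik over 14359 bases, and its summed count was whole in 4 of 9 libraries within the rounding of the table (0.01 counts plus the last printed digit). In the other 5 libraries some of its reads were divided with rows outside the gene.

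Gja1, which encodes the gap junction protein connexin 43 of astrocytes and radial glia at chr10:56377300-56390419, measured 286, 301 and 285 CPM in CELF2-KI RIP. In IgG RIP it measured 111, 150 and 207 CPM, and in input 230, 267 and 279 CPM. The CELF2-KI RIP libraries were above all 6 controls but close to the 2 highest input libraries, and IgG RIP was below input with a wide spread. Gja1 was 1.86-fold higher than in IgG RIP (0.90 ± 0.19, edgeR FDR 0.00261), a call lost without IgG RIP 2 (0.88, FDR 0.0113). That call was also lost with curated mRNA rows only (FDR 0.0112) and with only the 2 groups compared (FDR 0.0162). The value of Gja1 over input was 0.17 ± 0.19 (FDR 0.470), and it took the other sign without input 1 (-0.02) and under 3 other scalings of the libraries. Against input, IgG RIP was at -0.73 ± 0.19 (FDR 0.0128), which passed without IgG RIP 3 (-0.99, FDR 0.000645).

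Gfap, the intermediate filament protein of astrocytes at chr11:102887336-102897200, went the other way. It measured 51.5, 33.4 and 33.8 CPM in the CELF2-KI RIPs, 71.2, 86.6 and 63.6 CPM in the IgG RIPs and 88.7, 78.0 and 61.8 CPM in the inputs. All CELF2-KI RIP libraries were below all 6 controls, and the controls overlapped. Gfap was 1.86-fold lower than in IgG RIP (-0.90 ± 0.21, edgeR FDR 0.00406) and 1.93-fold lower than in input (-0.95 ± 0.21, FDR 0.00261). The call against IgG RIP was lost without CELF2-KI RIP 2 or 3 or IgG RIP 1 or 2 (-0.92 to -0.76, FDR 0.0101 to 0.0205). The call against input was lost without CELF2-KI RIP 2 or 3 (-0.84 and -0.85, FDR 0.0133 and 0.0142).

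The transcript rows of Gfap took different shares of its counts in the RIPs and in input. Its main coding row held 93.4% to 94.9% of the gene's counts in input, 82.9% to 91.5% in IgG RIP and 76.9% to 88.5% in CELF2-KI RIP. A noncoding transcript model of the gene held 3.43% to 4.20% in input, 8.47% to 17.1% in IgG RIP and 9.75% to 13.1% in CELF2-KI RIP. In CPM, this noncoding model measured 5.02, 4.37 and 3.63 in the CELF2-KI RIPs, 6.25, 7.33 and 10.9 in the IgG RIPs and 3.04, 3.28 and 2.27 in the inputs. Both RIP groups were above input for it, and CELF2-KI RIP was below IgG RIP. The main coding row measured 45.5, 25.6 and 29.1 CPM in the CELF2-KI RIPs, 64.2, 79.2 and 52.7 in the IgG RIPs and 84.2, 73.6 and 57.7 in the inputs, with CELF2-KI RIP below both controls. The other coding row measured 0.90, 3.34 and 1.10 CPM in the CELF2-KI RIPs, 0.67, 0 and 0 in the IgG RIPs and 1.53, 1.105 and 1.80 in the inputs, with CELF2-KI RIP above IgG RIP and overlapping input. In Pdgfra, 1 predicted row held 2.54% to 2.88% of the counts in input, 0% to 1.003% in IgG RIP and 0% to 3.14% in CELF2-KI RIP. No test was run on single transcript rows, where the estimate depends on how reads shared between rows were divided.

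The ratio of Gja1 to Gfap within a library was 5.55, 9.01 and 8.41 in the CELF2-KI RIPs, 1.57, 1.73 and 3.25 in the IgG RIPs and 2.597, 3.42 and 4.51 in the inputs. Each CELF2-KI RIP ratio was above all 6 controls. By contrast the Gja1 to Aqp4 ratio overlapped, at 2.59, 2.62 and 3.56 in the CELF2-KI RIPs, 3.02, 3.89 and 10.6 in the IgG RIPs and 3.07, 4.18 and 6.07 in the inputs.

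Radial glia contain Gja1 and, in part, Aldh1l1, so their markers were read beside the astrocyte genes. The 10 radial glial markers summed to 733 to 1242 CPM in the CELF2-KI RIPs, 868 to 975 in the IgG RIPs and 1323 to 1578 in the inputs, and none was at 0. Against IgG RIP, 1 of the 10 was higher and 4 were lower (Vim -2.15, Fabp7 -1.40, Hes1 -1.23 and Nes -1.21), beside 22.9% and 19.2% of all genes. Their part in the astrocyte results was not tested.

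Aldh1l1 and S100b spread widely among the IgG RIPs, and neither passed in any comparison. Aldh1l1, a folate enzyme used to identify astrocytes, lies at chr6:90550768-90599171 and measured 22.7, 28.3 and 41.8 CPM in the CELF2-KI RIPs, 36.4, 13.1 and 0 CPM in the IgG RIPs and 25.2, 13.4 and 28.6 CPM in the inputs. The groups overlapped throughout, and the value of 0 in IgG RIP 3 is a rounded estimate of 0.214 counts. A floor of 0.215 CPM (3 counts) covers counting error only and does not bound reads assigned to other rows. The change was 0.90 ± 0.96 over IgG RIP (edgeR FDR 0.458) and 0.47 ± 0.94 over input (FDR 0.688). Its estimated count was whole in 0 of 9 libraries, so its reads were divided with transcript rows outside the gene in each of them, and its level is uncertain. The gene table lists 3 transcripts of Aldh1l1, and 1 of them was in the count table.

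S100b, a calcium-binding protein of astrocytes and of some oligodendrocyte lineage cells at chr10:76253836-76261319, measured 1.36, 1.39 and 1.43 CPM in CELF2-KI RIP, from 17, 18 and 16 counts. It measured 6.01, 4.66 and 0.72 CPM in IgG RIP and 2.50, 1.95 and 2.02 CPM in input. CELF2-KI RIP was below input without overlap, and IgG RIP 3 was lower than every other library while IgG RIP 1 and 2 were the highest. The change was -1.44 ± 0.60 against IgG RIP (edgeR FDR 0.0639) and -0.63 ± 0.59 against input (FDR 0.375). Without IgG RIP 3 the change against IgG RIP was -1.94 and passed (FDR 0.000193), and that of IgG RIP over input was 1.31 and passed (FDR 0.00185). The ribosomal RNA share of IgG RIP 3 also stood apart from IgG RIP 1 and 2, and its part in the S100b values was not tested.

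The changes over IgG RIP were also read without IgG RIP 1 and 2, the libraries high in ribosomal RNA. With IgG RIP 3 alone and assumed to vary like the other groups, Aqp4 was at 2.27 (edgeR FDR 0.000985) and Sox10 at -1.38 (FDR 0.00598). Pdgfra was then at 0.41 (FDR 0.0434), Gja1 at 0.38 (FDR 0.0651), Cspg4 at -0.65 (FDR 0.0220) and Gfap at -0.79 (FDR 0.0438), none of which passed. Aldh1l1 then passed as higher than IgG RIP (FDR 0.000403) and as lower in IgG RIP than in input (FDR 0.00185), both against the value of 0 in IgG RIP 3. This alternative was chosen after seeing the data.

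The scaling of the libraries also set which members passed. Under 5 scalings the median of all tested genes ranged from -0.42 to -0.06 over IgG RIP, from -0.27 to 0.19 over input and from -0.17 to 0.02 for IgG RIP over input. Subtracting that median removes any shift common to all genes, so values relative to it are nearly flat by construction. Over IgG RIP they were 1.74 to 1.75 for Aqp4, 0.94 to 0.95 for Gja1 and 0.65 for Pdgfra. They were -0.51 to -0.49 for Cspg4, -0.64 to -0.62 for Olig1, -0.84 to -0.83 for Gfap and -0.94 to -0.93 for Sox10. Against 0, Pdgfra and Gja1 passed over IgG RIP in 2 of the 5 scalings, with values down to 0.23 and 0.53. Olig1, which did not pass as lower than IgG RIP under TMM, did so with total counts (-1.05, FDR 0.00434) and upper quartile scaling (-0.96, FDR 0.00407). Pdgfra passed over input in 3 of 5, and relative to the median gene it was at 0.46 to 0.47. Olig1, Olig2, Sox10 and Gfap passed as lower than input, and Sox10, Cspg4 and Gfap as lower than IgG RIP, in all 5.

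**Figure D4:**
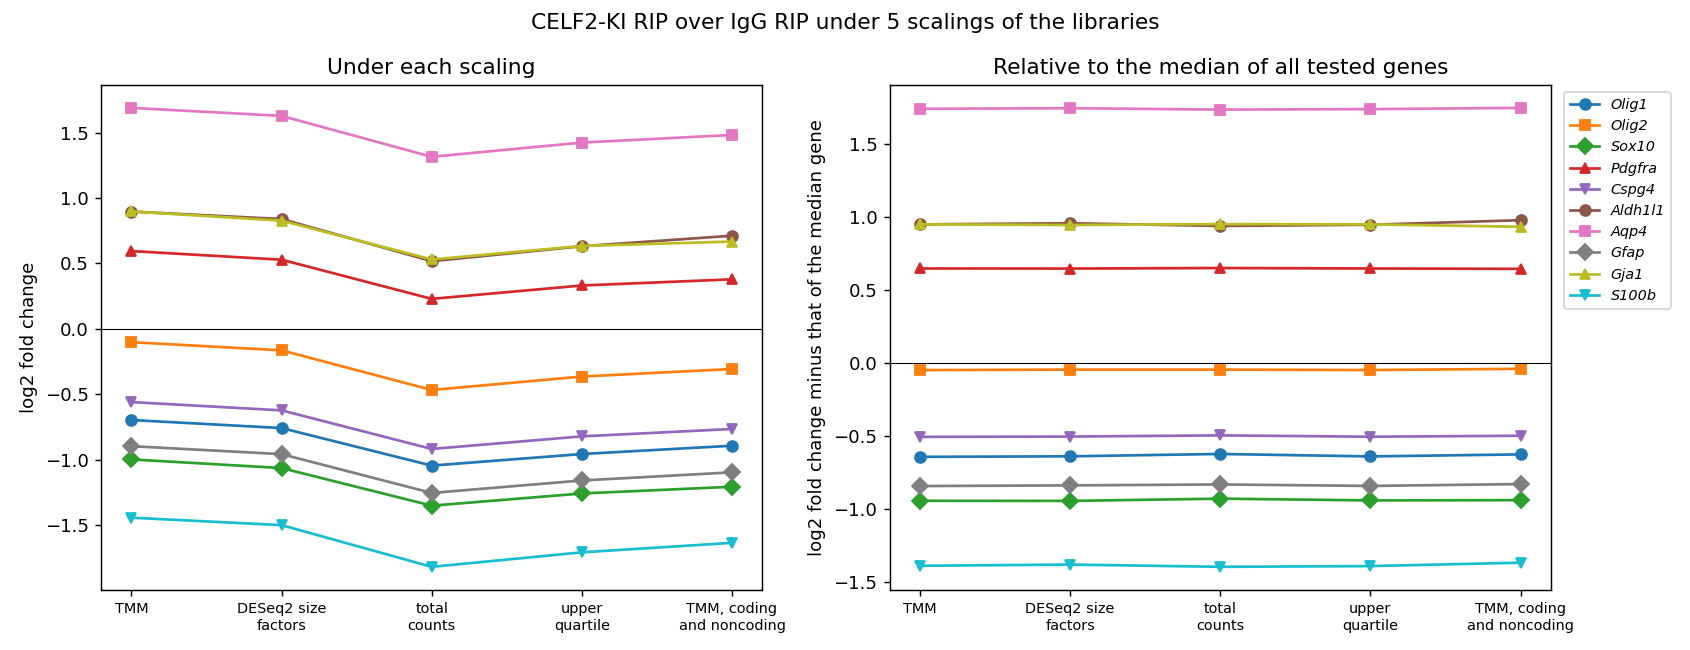
Log2 fold change of each macroglial gene in CELF2-KI RIP over IgG RIP under 5 scalings of the libraries, on the left against 0 and on the right after subtracting the median of all tested genes under the same scaling. The lines move down together on the left, most under total counts, and are flat on the right, where Aqp4 stays at 1.74 to 1.75. The flatness follows from the subtraction and is no result about these genes.

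The members' patterns over the 9 libraries were compared by the root mean square difference of centred log2 CPM. Among the 10, Olig1 and Sox10 were closest (0.275), Olig1 and Gfap differed by 0.373 and Pdgfra and Gja1 by 0.408. Of all other tested genes the nearest to 9 of the members were Ipo8 to Pdgfra (0.0550), Vcp to Cspg4 (0.0829), Ackr3 to Gja1 (0.0908), Imp3 to Olig1 (0.119), Grin1 to Gfap (0.146), Mbd3 to Sox10 (0.146), 4930563E22Rik to Aqp4 (0.192), C8g to S100b (0.283) and Unc5b to Aldh1l1 (0.544). The nearest gene to Aldh1l1 was farther from it than any of the others from theirs.

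Other genes of the same lineages were read from fixed lists. Of 12 other oligodendrocyte precursor genes, 3 were higher than in IgG RIP and 1 was lower, with a median of 0.45. Of all tested genes, 22.9% were higher and 19.2% lower. The orphan transmembrane gene Lhfpl3 was at 1.47 and the transcription factor Sox8, a relative of Sox10, at 1.43. The receptor Gpr17 was at 0.94 and the proteoglycan Vcan at -0.45. Against input, 1 of the 12 was higher (Sox8, 0.77) and 2 were lower, Vcan among them (-0.72), beside 26.8% and 20.1% of all genes. Lhfpl3 (0.30) and Gpr17 (0.28) did not pass over input (edgeR FDR 0.260 and 0.225). Sox8 measured 85.7, 68.7 and 68.3 CPM in the CELF2-KI RIPs, 30.6, 31.5 and 20.6 CPM in the IgG RIPs and 50.6, 39.3 and 40.7 CPM in the inputs, so it lay above all controls where Sox10 lay below them.

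Of 22 other astrocyte genes, 7 exceeded IgG RIP and 7 were below it, with a median of 0.02. The gap junction gene Gjb2 was at 2.02 and Gjb6, of the same family, at -1.59. The lipid carrier Apoe was at -1.98, the secreted chaperone Clu at -1.93 and the matrix protein Sparcl1 at -1.83. Others that were higher included Mlc1 (1.66), the glutamate transporter gene Slc1a2 (1.64), Nfia (1.19) and Slc4a4 (1.10). Each of these was also higher than input (0.90, 1.54, 1.21 and 1.42), while Gjb2 did not pass there (0.59, edgeR FDR 0.0763). Against input, 5 of the 22 were higher and 10 lower, beside 26.8% and 20.1% of all genes. Of 7 genes of intermediate filaments and the complex that anchors Aqp4, 2 were higher and 2 lower: the filament genes Vim (-2.15) and Nes (-1.21), both also radial glial markers, were lower, as Gfap was, and the dystrophin complex genes Dtna (1.14) and Dag1 (0.65) were higher, as Aqp4 was. Of 5 genes encoding PDGF ligands and the beta receptor, 1 was higher (the ligand Pdgfb, 1.61) and 0 were lower in edgeR, with 1 lower at an unadjusted p under 0.05. The counts for these lists were taken under TMM scaling alone. Beside each edgeR count over IgG RIP stand 22.9% higher and 19.2% lower over all genes, and 29.8% were lower at an unadjusted p under 0.05.

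**Figure D5:**
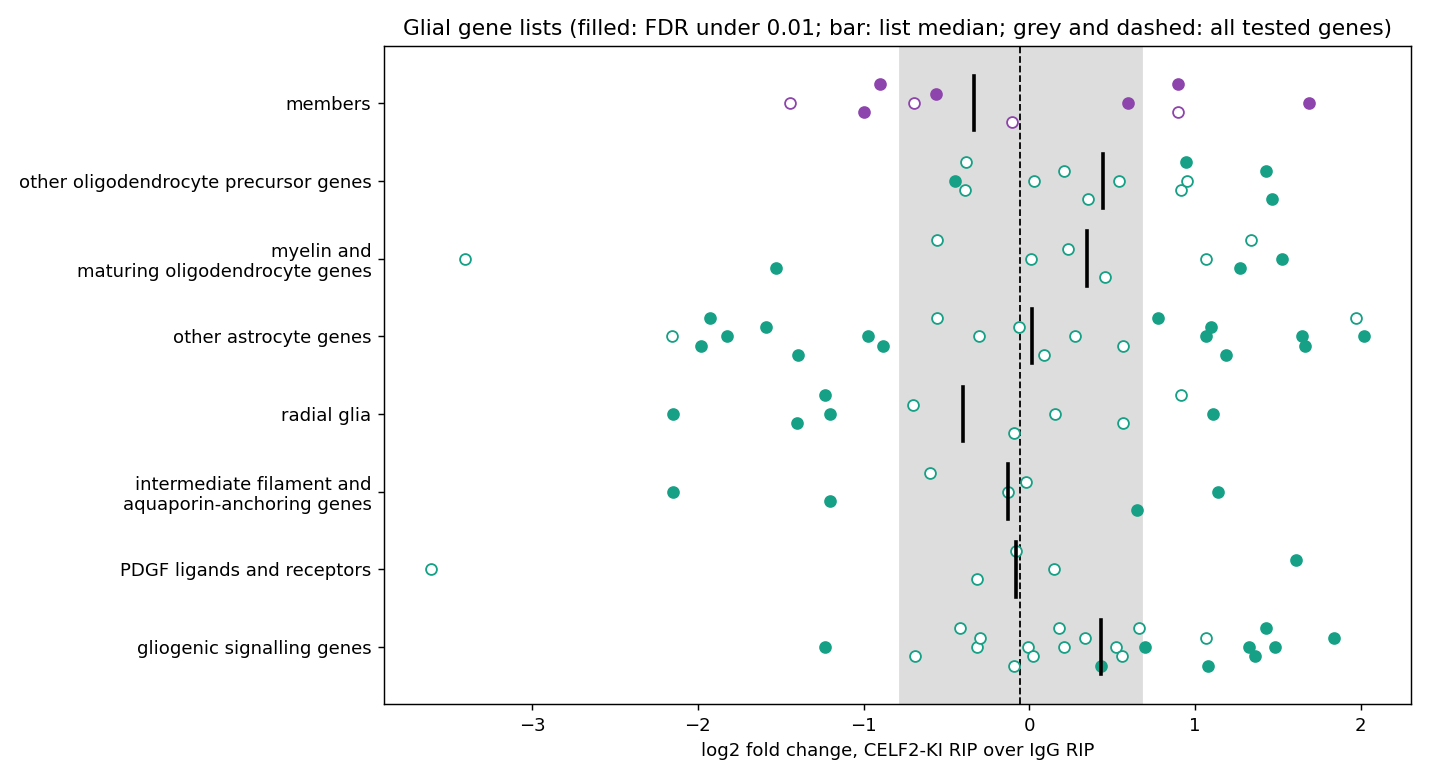
Log2 fold change between CELF2-KI RIP and IgG RIP for the 10 macroglial genes and for 7 lists of related genes, with 1 point per tested gene, filled for an FDR under 0.01 in edgeR, and a bar at the list's median. The grey band and dashed line are the interquartile range and median (-0.06) of all tested genes, and every list has points on both sides of that median.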

How the data were processed

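RNA of 9 libraries (3 CELF2-KI RIP, 3 IgG RIP, 3 input, P0 cortex cytoplasm) was analysed. Per the study's methods the authors depleted rRNA, made directional libraries, trimmed reads with fastp 0.23.4, removed rRNA reads with Ribodetector 0.3.1 and pseudoaligned with kallisto 0.51.1. The authors deposited estimated counts per RefSeq transcript, not normalized for depth or length, and whether counting used strand is not given in the sources used here. The submitters' processing notes name mm10. Of 107384 rows, 86714 matched a gene of the RefSeq table for GRCm38.p6, and the unmatched rows (9.27% to 43.5% of counts) were left out. Counts were summed per gene and rounded.

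Testing was limited to protein-coding genes reaching 0.5 CPM in 3 or more libraries and used edgeR 4.0.16 (R 4.3.3, limma 3.58.1): TMM, 1 mean per group over all 9 libraries, quasi-likelihood F test and Benjamini-Hochberg FDR. SE is the log2 fold change divided by the square root of F. Coding counts were 9344325 to 14960841 in IgG RIP, 13519265 to 16836385 in CELF2-KI RIP and 55229679 to 78483586 in input. Reads carry no molecular identifiers, so floors cover counting error only. Replicates differed beyond sampling noise (chi-square per gene 12.2 to 46.0), and the p-values measure the spread between these samples. Plots came from matplotlib 3.10.9 in Python 3.11.15, and DESeq2 1.42.0 was an alternative. The steps were tested on simulated data.

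Deviations from group means correlated between same-numbered libraries at 0.110, 0.117 and 0.123 between CELF2-KI RIPs and inputs, at -0.056, 0.043 and 0.014 between the RIPs, and at 0.030, 0.065 and 0.038 between IgG RIPs and inputs. Genes in these correlations are no replicates. By the rule that every pair exceed 0.1, the numbers pair CELF2-KI RIPs and inputs alone. The block was fitted as an alternative over all 9 libraries, so it also matched the IgG RIPs, which the rule does not pair.

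The members and lists were chosen with earlier results of these data known. Genes named are the 10 members, Celf2, up to 4 genes of each list past the FDR over IgG RIP with the largest change, and the nearest gene in pattern to each member, of which 1 is not reported here. The collagens, Dcn, Gjb6, Mlc1, Slc1a2, Nfia, Slc4a4 and the per-library values of Sox8 were named after their values were seen.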

Additional observations from a re-analysis of the deposited data

How the results depend on the processing

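Of the alternatives for single macroglial genes, 538 values kept direction and side of the threshold, 32 gained a call, 41 lost one and 19 changed sign. Aqp4 over IgG RIP and Olig1 and Sox10 below input passed in all 21 alternatives. Signs changed for values near 0 or resting on few libraries, and the cause was not tested. Cspg4 over input was -0.16 with total counts and -0.084 with TMM over coding and noncoding genes. Gja1 over input was -0.30 with total counts, -0.072 with upper quartile scaling, -0.22 with TMM over coding and noncoding genes, -0.066 with only the 2 groups compared and -0.022 to 0.18 without a single library (lowest without input 1). Pdgfra in IgG RIP over input was -0.0083 with DESeq2 size factors, -0.031 with total counts, -0.11 with TMM over coding and noncoding genes and -0.0081 with DESeq2's Wald test. Olig2 over IgG RIP was -0.28 to 0.090 without a single library (positive without CELF2-KI RIP 3 or IgG RIP 1) and 0.089 without both IgG RIP libraries high in 45S rRNA. In IgG RIP over input, Gfap was -0.19 to 0.069 without a single library (positive without IgG RIP 3 or input 1), and Aldh1l1 was -1.84 to 0.16 (positive without IgG RIP 3). Without both IgG RIP libraries high in 45S, S100b was 0.85 over IgG RIP and -1.59 for IgG RIP over input.

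Members higher than IgG RIP numbered 1 with total counts, upper quartile scaling or TMM over coding and noncoding genes. Of the 15263 tested genes, 2145, 2498 and 2630 then passed in that direction. Without a single library 2 to 3 members were higher, beside 2788 to 3627 of all genes. Members lower than IgG RIP numbered 1 with glmTreat against 1.2-fold, with only the 2 groups compared or without both 45S-rich libraries. Without a single library 0 to 4 were lower, beside 2226 to 3273 of all genes. Members higher than input numbered 0 with total counts or TMM over coding and noncoding genes and 2 with the replicate block. Without a single library 1 to 2 were higher than input, beside 2603 to 4894 of all genes. In those same fits 2 to 4 were lower than input, beside 2459 to 3561. Members higher in IgG RIP than in input numbered 0 without both 45S-rich libraries. Without a single library they numbered 1 to 2, beside 773 to 2555 of all genes. Members lower in IgG RIP than in input numbered 2 with DESeq2 size factors or without both 45S-rich libraries, and 1 with total counts, no filter or only the 2 groups compared. They numbered 3 with TMM over coding and noncoding genes and 4 with DESeq2's Wald test or the replicate block. Without a single library they numbered 0 to 1, beside 764 to 2262 of all genes. Where no count over all genes stands beside a member count, the latter is no result about the members. With the block, Olig1 also passed as lower than IgG RIP (-0.74). Apart from the member counts given above for the block, it moved none by over 1.5 times.

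Over all genes, 2145 were higher than IgG RIP with total counts, 2123 with curated mRNA rows only and 2788 to 3627 without a single library. Lower than IgG RIP were 4476 with total counts and 2226 to 3273 without a single library. Higher than input were 1893 with total counts, 2168 with TMM over coding and noncoding genes, 2227 with curated rows and 2603 to 4894 without a single library, and lower than input 2459 to 3561. Higher in IgG RIP than in input were 677 with curated rows, 779 without both 45S-rich libraries and 773 to 2555 without a single library. Lower were 2908 with DESeq2's Wald test, 1056 with glmTreat, 692 with curated rows, 969 without both 45S-rich libraries and 764 to 2262 without a single library.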

Other observations

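Genes of later oligodendrocytes and of the signals that turn progenitors to glia were read from fixed lists under TMM scaling alone. Of 12 myelin and maturing oligodendrocyte genes, 10 were tested (Mobp and Opalin were not). CELF2-KI RIP exceeded IgG RIP for 2 of these 10 and fell below it for 1, beside 22.9% and 19.2% of all genes. Their median log2 fold change over IgG RIP was 0.35. The myelin protein gene Mbp measured 74.2 CPM on average in CELF2-KI RIP, 25.9 in IgG RIP and 29.6 in input (1.52 over IgG RIP, edgeR FDR 4.74e-05). The tight junction gene Cldn11 was at 1.27 (FDR 0.00723), and Cnp, an enzyme of myelinating cells, was at -1.53 (FDR 0.00100). Mbp was also higher than input (1.33, FDR 8.16e-05) and Cnp lower (-2.10, FDR 0.000113). Cldn11 was at 0.20 over input, which did not pass (FDR 0.604).

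Of 23 gliogenic signalling genes, 8 exceeded IgG RIP and 1 was below it, with a median of 0.43, beside 22.9% and 19.2% of all genes. Against input, 9 were higher and 1 was lower, beside 26.8% and 20.1% of all genes. The cytokine gene Ctf1 was at 1.84 over IgG RIP, the hedgehog transducer Smo at 1.48, the BMP pathway mediator Smad4 at 1.43 and the LIF receptor gene Lifr at 1.36, and each of the 4 was also higher than input (1.34, 1.12, 1.34 and 1.66). Their values over IgG RIP had edgeR FDRs of 0.00223, 1.01e-05, 1.10e-05 and 8.40e-05. Hes1, a Notch target that is also among the radial glial markers, was lower than in IgG RIP (-1.23).

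Markers of other cell types in the lysate were read in the same way. Against IgG RIP, 5 of 8 excitatory neuron markers were higher and 1 lower, as were 4 and 2 of 8 for inhibitory neurons, 1 and 3 of 7 tested for microglia, 0 and 2 of 7 for endothelium and 0 and 5 of 5 for erythroid cells. Over all genes 22.9% were higher and 19.2% lower. The erythroid markers summed to 92.7 to 95.0 CPM in CELF2-KI RIP, 366 to 584 in IgG RIP and 877 to 1135 in input. The microglial marker P2ry12 was at 0 counts in all 6 RIP libraries and in input 3 and was not tested.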
